A study of Homo sapiens with 6 samples.

Results

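The genes described here are 37 regulators and transcriptional targets of the tumour suppressor p53, most of them linked to growth arrest, DNA repair, metabolism or survival. They were taken by gene name from a list of such genes, and all 37 were found among the 58302 genes of the table, each in 1 row. RNA was measured by sequencing of polyA RNA in ME180 cells, a human cervical cancer line of epithelial morphology, 48 h after transfection. One group received a control small interfering RNA (siControl, 3 libraries) and the other an siRNA against the kinase SGK1 (siSGK1, 3 libraries). All cultures are of this line, were transfected and carry the replicate numbers 2, 3 and 4; the series calls them biological repeats, and no other treatment is named. The labels do not give the siRNA sequences, and with 1 siRNA label per group an effect of SGK1 loss and any other effect of that siRNA cannot be told apart.

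The p53 protein is a transcription factor that is held at a low level in unstressed cells. MDM2 and MDM4 bind it, and MDM2 marks it with ubiquitin for destruction; in cells with human papillomavirus, as ME180 is, the viral protein E6 directs the ligase UBE3A against p53. When p53 accumulates it raises genes that stop the cell cycle, repair DNA, change metabolism or cause cell death, and it also raises its own inhibitors, MDM2 and PPM1D among them. Many of these genes are also driven by other factors, so a level of their mRNA is not a measure of p53 activity alone. SGK1 is a kinase related to AKT.

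Values are FPKM (fragments per kilobase of gene length and of sequencing depth, as the authors scaled them). The length is 1 deposited value per gene, such as 9127 bases for RPS27L and 13269 for MDM2, whichever transcripts are present. Levels of different genes can therefore be set side by side only roughly. Libraries held 27262794 to 27874948 reads in siControl and 28405647 to 35242643 in siSGK1. SGK1 itself measured 3.91, 4.27 and 4.17 FPKM in siControl replicates 2, 3 and 4 and 1.58, 1.70 and 1.81 FPKM in the siSGK1 replicates, so the target was lower in every library labelled as silenced. Its log2 change was -1.07 (SE 0.07, limma adjusted p = 1.88e-05), and p was 0.1 by an exact permutation test (two-sided), the least that 3 against 3 libraries allow. All 8 epithelial markers examined (KRT5, KRT14, KRT8, KRT18, KRT19, EPCAM, CDH1 and TP63) had a mean of at least 1 FPKM. Their summed level was 8407 to 8877 FPKM in siControl and 5452 to 6361 FPKM in siSGK1, and 4 of the 8 (KRT5, KRT14, KRT8 and KRT19) were lower by the test below. Of the fibroblast markers 5 of 6, and of the leukocyte markers 4 of 5, stayed below 0.1 FPKM in every library. Summed levels were 4.70 to 5.25 FPKM (siControl) and 4.87 to 5.72 FPKM (siSGK1) for the fibroblast list, nearly all COL1A1, and 0.165 to 0.212 and 0.166 to 0.366 FPKM for the leukocyte list. For the 3 endothelial markers, of which PECAM1 stayed below 0.1 FPKM, they were 1.38 to 1.66 and 0.710 to 0.881 FPKM. In bulk RNA fewer cells of a kind and less RNA per cell cannot be told apart. The share of reads from mitochondrial genes was 4.25% ± 0.13 (SD, n = 3) with siControl and 3.5% ± 0.14 (SD, n = 3) with siSGK1. The part of these shifts in the results below was not tested.

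Members with a mean of at least 1 FPKM over the 6 libraries were tested on log2(FPKM + 0.5), with all other genes above that level. The test was limma, a linear model that draws each gene's variance toward that of genes of similar level. A gene was called at a Benjamini-Hochberg adjusted p below 0.05, and every adjusted p below comes from this test unless another is named. A positive log2 change means higher in siSGK1. Of the 37 members 33 were tested. The other 4, MDM4, ALOX5, TNFRSF10C and EDA2R, lay under the level minimum.

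Most members that changed were lower after siSGK1, and most changes were small. Of 33 tested members 16 fell (48.5%), 5 rose (15.2%) and 12 were not called. Over all 11945 tested genes 22.7% were called lower, 17.9% higher and 40.6% in either direction. Of the members 13 were called with an absolute log2 change of at least 0.3, and 22.9% of all tested genes were. The median log2 change was -0.19 over the tested members and -0.01 over all tested genes. In 18 members every siSGK1 library lay below every siControl library and in 6 every one lay above, where 28.8% and 24.6% of all tested genes did so (53.4% in either direction). GDF15, GADD45G, PHLDA3 and SFN fell most, and PLK2, BTG2, DRAM1, TP53I3 and UBE3A rose. These directions are relative to the typical gene: scaling by total reads moved the median of all genes to 0.12 and TPM scaling to 0.19, and the members called higher and lower were then 8 and 9, and 11 and 9. Relative to the median of all genes in each scaling, the members' median was -0.18 as deposited and -0.18 after quantile normalization. With total reads it was -0.18 and with TPM -0.19, but these scalings multiply every value of a library by the same factor. That shifts the log2 changes of all genes almost alike, and subtracting the median removes the shift. The total-read and TPM values could therefore hardly differ from the deposited value and are no separate check.

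**Figure D1:**
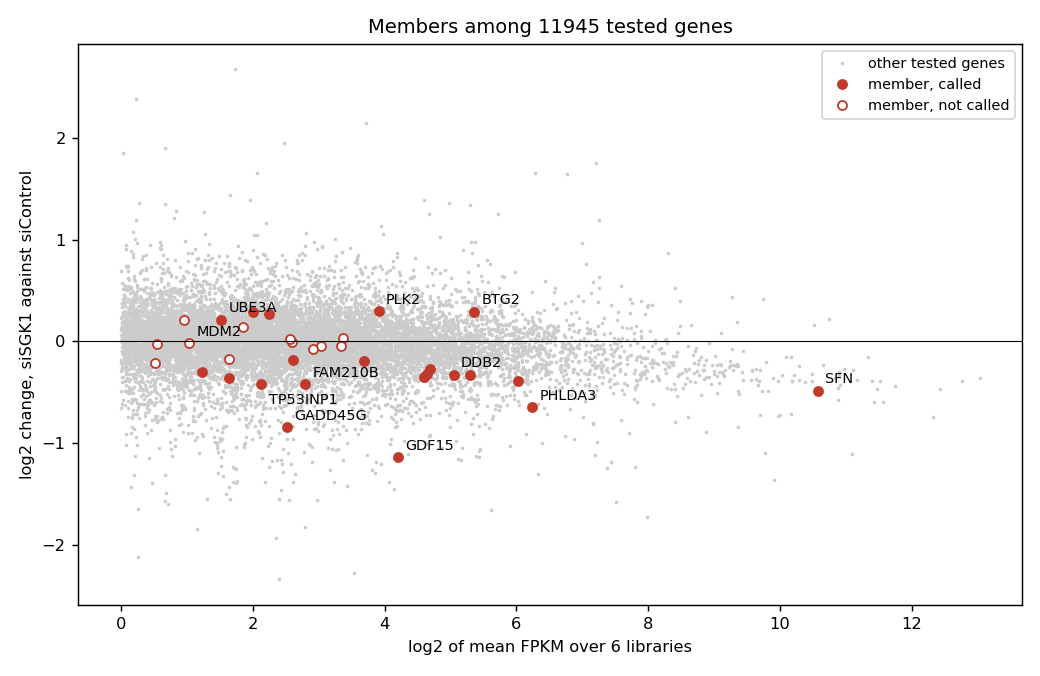
Log2 change of siSGK1 against siControl (vertical) against log2 mean FPKM (horizontal) for 11945 tested genes in grey, with the 33 tested members in red, filled where called. GDF15 and GADD45G lie lowest among the members, and SFN lies far to the right, where most genes are below 0.

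The level of a gene went with its change, and this bears on the abundant genes, the most abundant member among them. Among the 5439 tested genes with a mean of 1 to 5 FPKM the median log2 change was 0.03. It was -0.01 among the 4129 genes of 5 to 20 FPKM and -0.06 among the 1908 genes of 20 to 100 FPKM. Among the 379 genes of 100 to 500 FPKM it was -0.19, and among the 90 genes of at least 500 FPKM it was -0.33. Members of 20 to 100 FPKM had a median of -0.33, with 7 of 8 called lower, where 32.97% of all genes of that range were called lower. Members of 5 to 20 FPKM had a median of -0.06, with 5 of 12 called lower and 1 higher. Of all genes of 5 to 20 FPKM 23.7% were called lower and 20.4% higher. Members of 1 to 5 FPKM had a median of -0.02, with 3 of 12 called lower and 3 higher. Of all genes of 1 to 5 FPKM 14.97% were called lower and 17.2% higher.

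**Figure D2:**
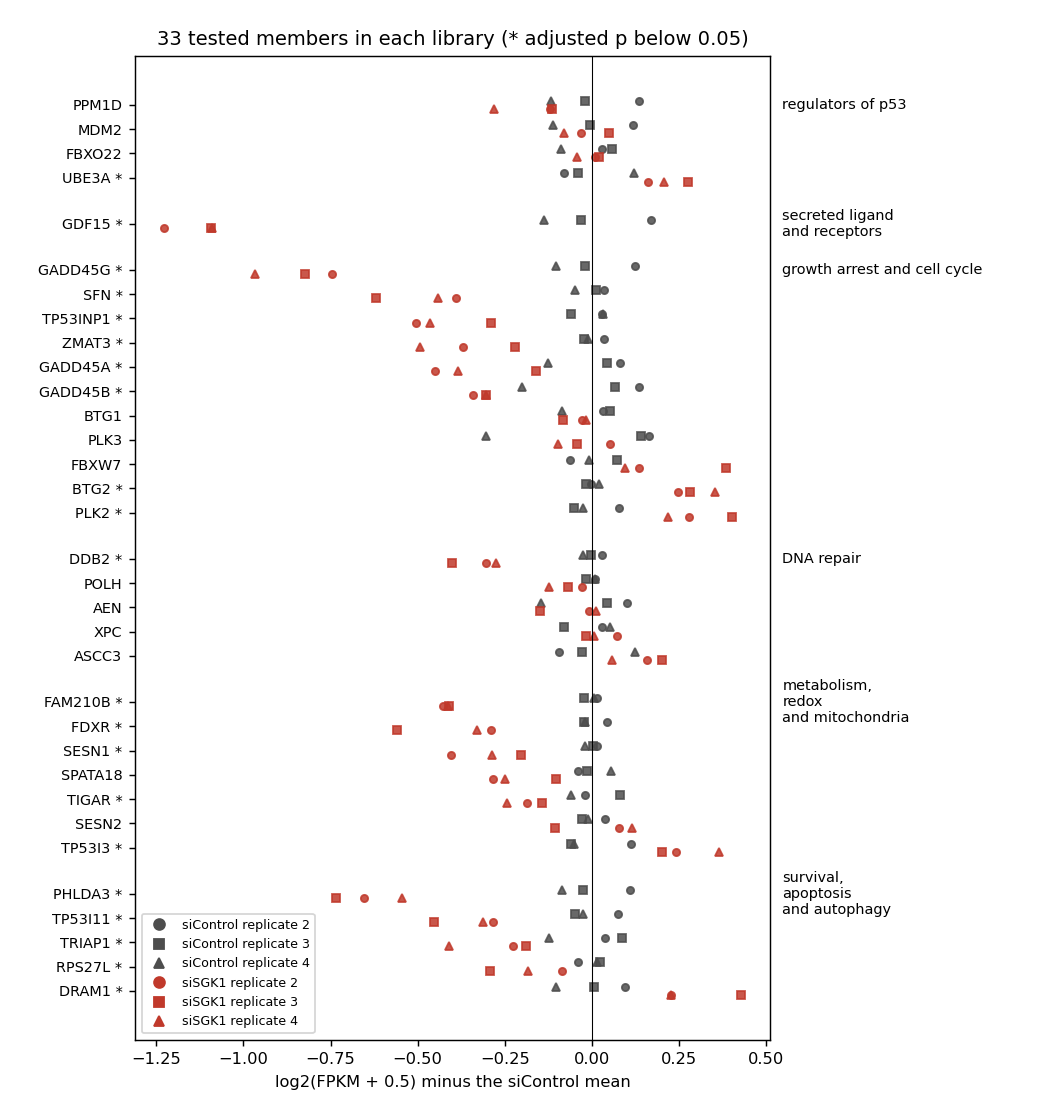
Each tested member in each of the 6 libraries, as log2(FPKM + 0.5) minus the siControl mean, grouped by role; grey points are siControl, red points siSGK1, and the symbol gives the replicate number. In GDF15, GADD45G and PHLDA3 the groups stand well apart, and in MDM2, FBXO22 and SESN2 they overlap.

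Sequence around the start sites was examined because p53 acts by binding DNA. RefSeq promoter windows (GRCh38.p14, 250 bases before to 50 after each start) were matched by symbol for 30 of the 37 members; ALOX5, ASCC3, FBXO22, GADD45A, PHLDA3, TNFRSF10C and TP53INP1 had none. Both strands were covered, since the p53 consensus decamer, the unit that p53 sites carry as a pair, reads the same on either. It was found in the windows of 6 of the 30 members (20%), against 8.06% of 27305 genes and 7.36% of the 8429 tested genes with a window. A gene counted when any of its windows matched, and the 27305 genes had 35116 windows. The number of windows per gene was not taken into account, and sequence outside the windows was not searched. Members were listed for their link to p53, so the higher share is no independent evidence. DDB2 has the decamer at positions 6 and 17 after the start, separated by 1 base; only 10 of 27305 genes hold a pair within 13 bases. The 6 stretches are shown because they cover all matches among the members, with the decamer in capitals, 5′ to 3′ on the gene's strand.
DDB2 (chr11:47214959-47215019, plus strand): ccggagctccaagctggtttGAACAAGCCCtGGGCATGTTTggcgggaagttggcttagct
FDXR (chr17:74872976-74873025, minus strand): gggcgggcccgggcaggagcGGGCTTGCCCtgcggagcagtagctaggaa
AEN (chr15:88621286-88621335, plus strand): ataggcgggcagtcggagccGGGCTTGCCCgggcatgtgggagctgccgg
SESN1 (chr6:109009008-109009057, minus strand): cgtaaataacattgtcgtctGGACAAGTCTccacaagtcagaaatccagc
RPS27L (chr15:63157507-63157556, minus strand): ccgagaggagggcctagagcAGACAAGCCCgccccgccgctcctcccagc
PLK2 (chr5:58460189-58460238, minus strand): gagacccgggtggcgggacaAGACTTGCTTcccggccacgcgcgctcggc
The decamer of FDXR and that of AEN are the same 10 letters. A match is a description of letters and not a binding site shown by these data. Of these 6 genes DDB2, FDXR, SESN1 and RPS27L fell, PLK2 rose and AEN was not called, with the values given below.

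Among the regulators of p53, only UBE3A of 4 tested was called as deposited, and it rose. Over all tested genes 40.6% were called and 17.9% were called higher. The role groups here and below are small, and differences between roles were not tested. MDM2 (chromosome 12, 68808176 to 68850686), a ubiquitin ligase of p53 and also its target, measured 2.27, 2.05 and 1.86 FPKM in siControl and 2.00, 2.14 and 1.91 FPKM in siSGK1. The groups overlapped (log2 change -0.02, 95% interval -0.21 to 0.16, adjusted p = 0.859), and the sign turned to 0.09 with total reads and 0.17 with TPM. MDM4, the relative of MDM2 that binds and blocks p53, was listed at 0.762, 0.763 and 0.886 FPKM in siControl and 0.751, 0.869 and 0.724 FPKM in siSGK1. It rested on 218 to 317 reads per library and was tested only without the level minimum (adjusted p = 0.903). UBE3A (chromosome 15, 25333728 to 25439056), known as E6-associated protein, measured 2.44, 2.53 and 2.88 FPKM in siControl and 2.98, 3.26 and 3.09 FPKM in siSGK1. Its siSGK1 libraries were all higher, though siControl replicate 4 came close (log2 change 0.21, SE 0.07, adjusted p = 0.0438). Adjusted p was 0.127 for UBE3A when siControl replicate 2 or 3 was left out, and the call was also lost without siSGK1 replicate 2 (0.0595), 3 (0.116) or 4 (0.0957) and with the replicate number as a block (0.0558). Exons of UBE3A share 198 bases with SNHG14 on the other strand. PPM1D, the phosphatase WIP1 that reverses p53 phosphorylation, measured 3.70, 3.28 and 3.03 FPKM in siControl and 3.02, 3.03 and 2.65 FPKM in siSGK1. These groups overlapped by a small margin (log2 change -0.17, 95% interval -0.36 to 0.02, adjusted p = 0.130). FBXO22, an F-box protein of a ligase that acts on p53 when it is methylated, was at 6.04 ± 0.35 and 6.01 ± 0.15 FPKM (SD, n = 3 each; adjusted p = 0.954). FBXO22 passed as higher with TPM, and it shares 1917 exon bases with NRG4 on the other strand.

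GDF15 was the member with the largest change. It encodes a secreted cytokine of the TGF-beta superfamily that many stresses raise. GDF15 (ENSG00000130513, chromosome 19, 18374731 to 18389176) measured 28.7, 24.9 and 23.1 FPKM in siControl and 10.6, 11.7 and 11.7 FPKM in siSGK1. The groups lay far apart, and the level in siSGK1 was 44.3% of the control level (log2 change -1.14, SE 0.08, adjusted p = 2.83e-05). Only 64 of the 11945 tested genes had a lower log2 change. TNFRSF10C, a decoy receptor for the death ligand TRAIL, was listed at 0.746 ± 0.071 and 0.571 ± 0.202 FPKM, with 41 to 62 reads per library. EDA2R, the receptor for the A2 form of ectodysplasin, had 9 to 18 reads per library. Neither receptor was tested at the level minimum, and without it their adjusted p-values were 0.450 and 0.812.

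All 3 GADD45 genes fell, where 22.7% of all tested genes were called lower. The GADD45 genes encode small stress proteins that bind CDK1, PCNA and the kinase MAP3K4. GADD45A is the family member known as a p53 target. GADD45A measured 46.4, 45.2 and 40.1 FPKM in siControl and 31.9, 39.1 and 33.4 FPKM in siSGK1. The groups did not overlap, but siSGK1 replicate 3 lay just under siControl replicate 4 (log2 change -0.33, SE 0.08, adjusted p = 0.0130). GADD45B measured 30.5, 29.1 and 24.1 FPKM in siControl and 21.8, 22.4 and 22.4 FPKM in siSGK1. Its siSGK1 libraries lay close together, and siControl replicate 4 was the nearest control (log2 change -0.32, SE 0.08, adjusted p = 0.0140; 0.0511 without siControl replicate 3). GADD45G (chromosome 9, 89605013 to 89606555) measured 8.16, 7.35 and 6.90 FPKM in siControl and 4.24, 3.997 and 3.57 FPKM in siSGK1. It was the least abundant of the 3 and fell furthest, to 52.7% of the control level on 165 to 283 reads per library (log2 change -0.84, SE 0.08, adjusted p = 1.03e-04). GADD45A and GADD45B kept their sign under every scaling but lost their calls with total reads (adjusted p = 0.111 and 0.0852) and TPM (0.262 and 0.226), and GADD45A also after quantile normalization (0.0508). GADD45G was called under each of them.

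**Figure D3:**
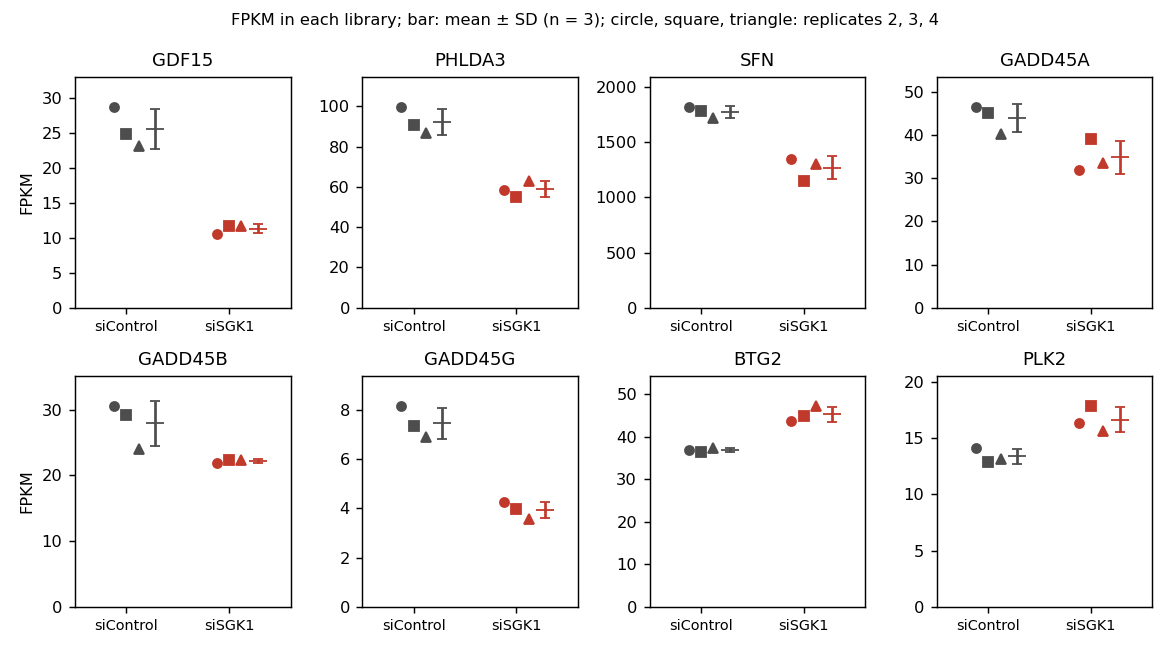
FPKM in each library for 8 members, with the mean ± SD of 3 libraries beside the points and each vertical axis starting at 0. GDF15 sits at 23.1 to 28.7 FPKM in siControl and 10.6 to 11.7 FPKM in siSGK1, whereas BTG2 and PLK2 are higher in siSGK1.

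The remaining genes of growth arrest went both ways, so that of the 11 tested members with this role 6 fell, 2 rose and 3 were not called. Of all tested genes 22.7% were called lower and 17.9% higher. SFN, the epithelial 14-3-3 sigma protein that holds cyclin B and CDK1 in the cytoplasm, was the most abundant member by far. It measured 1818, 1788 and 1716 FPKM in siControl and 1352, 1153 and 1306 FPKM in siSGK1. All siSGK1 libraries were lower (log2 change -0.48, SE 0.07, adjusted p = 6.83e-04), but the change was -0.19 after quantile normalization and -0.28 with TPM. The 90 tested genes of at least 500 FPKM had a median of -0.33, and 87.8% of them were called lower. TP53INP1, a nuclear protein that helps the kinase HIPK2 act on p53, measured 5.18, 4.84 and 5.19 FPKM in siControl and 3.42, 4.06 and 3.53 FPKM in siSGK1. The gap between the groups was wider than the spread within either (log2 change -0.42, SE 0.07, adjusted p = 1.96e-03). ZMAT3, an RNA-binding zinc finger protein, measured 3.66, 3.50 and 3.53 FPKM in siControl and 2.65, 2.99 and 2.39 FPKM in siSGK1. Its siSGK1 libraries were lower and more spread than the controls (log2 change -0.36, SE 0.08, adjusted p = 6.32e-03), and the call was lost with total reads (0.0530) and TPM (0.117).

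The paralogs BTG1 and BTG2, and PLK2 and PLK3, each had 1 member that rose and 1 that was not called. BTG2, an antiproliferative protein that recruits the CCR4-NOT deadenylase, measured 36.8, 36.4 and 37.4 FPKM in siControl and 43.8, 44.9 and 47.2 FPKM in siSGK1. The increase was 1.23-fold and well outside the spread of the controls (log2 change 0.29, SE 0.04, adjusted p = 1.14e-03). BTG1 measured 10.5, 10.7 and 9.67 FPKM in siControl and 10.1, 9.68 and 10.2 FPKM in siSGK1, and the groups overlapped (log2 change -0.04, 95% interval -0.16 to 0.08). With TPM the change of BTG1 was 0.16 and passed (adjusted p = 0.0262). PLK2, a polo-like kinase of G1 and the stress response, measured 14.1, 12.9 and 13.1 FPKM in siControl and 16.3, 17.8 and 15.6 FPKM in siSGK1. All siSGK1 libraries of PLK2 were higher (1.24-fold, log2 change 0.30, SE 0.06, adjusted p = 4.95e-03). PLK3, its relative, measured 1.70, 1.66 and 1.09 FPKM in siControl and 1.53, 1.41 and 1.33 FPKM in siSGK1, with 102 to 170 reads per library. The controls of PLK3 spread more widely than the groups differed, so its interval was broad (log2 change -0.03, 95% interval -0.32 to 0.27). A difference in response within either pair was not tested. FBXW7, the F-box protein that marks cyclin E and MYC for destruction, was at 1.76 ± 0.11 and 2.12 ± 0.29 FPKM, with no overlap but adjusted p = 0.110; it passed with voom on reads (0.0242), total reads (0.0345) and TPM (0.0186).

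Of the 5 genes grouped here under DNA repair, AEN among them, 1 fell and 4 were not called, where 22.7% of all tested genes were called lower. DDB2 (chromosome 11, 47214465 to 47239240), the subunit that recognises ultraviolet damage in chromatin, measured 37.6, 36.7 and 36.2 FPKM in siControl and 29.7, 27.8 and 30.4 FPKM in siSGK1. Both groups were tight and apart (1.26-fold lower, log2 change -0.33, SE 0.05, adjusted p = 9.88e-04). XPC, its partner in damage recognition, was at 5.88 ± 0.31 and 5.97 ± 0.21 FPKM (log2 change 0.02, 95% interval -0.11 to 0.15). XPC shares 318 exon bases with LSM3 on the other strand, a gene at 28.2 FPKM, so its value is uncertain. With TPM XPC was called higher (log2 change 0.22). POLH, the polymerase that copies past ultraviolet damage, AEN, a nuclease of apoptosis, and ASCC3, a helicase, had log2 changes of -0.07, -0.05 and 0.14 (adjusted p = 0.262, 0.642 and 0.168). The signs of POLH and AEN turned with total reads (0.06 and 0.08) and TPM (0.12 and 0.15), and ASCC3 passed under both (adjusted p = 0.0300 and 0.0137).

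Genes of metabolism, redox and mitochondria were lower in 4 of 7 tested members and higher in 1. Among all tested genes the shares called were 22.7% lower and 17.9% higher. FAM210B, a mitochondrial membrane protein, measured 8.06, 7.85 and 8.02 FPKM in siControl and 5.80, 5.87 and 5.87 FPKM in siSGK1. Its replicates lay close together in both groups, with an SD of 0.11 and 0.042 FPKM (log2 change -0.42, SE 0.05, adjusted p = 2.28e-04). FDXR, the ferredoxin reductase that passes electrons to mitochondrial P450 enzymes, measured 76.1, 72.6 and 72.8 FPKM in siControl and 60.3, 49.97 and 58.6 FPKM in siSGK1. It was lower in every siSGK1 library, furthest in replicate 3 (log2 change -0.39, SE 0.07, adjusted p = 2.64e-03). The sestrins, which restrain mTORC1 when amino acids are short, did not both pass. SESN1 measured 2.66, 2.64 and 2.59 FPKM in siControl and 1.87, 2.22 and 2.07 FPKM in siSGK1, and fell (log2 change -0.30, SE 0.07, adjusted p = 0.0109), though not by the test with total reads (0.0968) or TPM (0.217). SESN2 measured 10.5, 9.98 and 10.1 FPKM in siControl and 10.8, 9.43 and 11.1 FPKM in siSGK1. Those groups overlapped as deposited (log2 change 0.03, 95% interval -0.12 to 0.18), while SESN2 passed as higher with total reads (0.16, adjusted p = 0.0332) and TPM (0.23, adjusted p = 6.78e-03).

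Smaller shifts marked the other metabolic members. TIGAR, a fructose bisphosphatase that slows glycolysis, was at 13.7 ± 0.71 FPKM in siControl and 11.96 ± 0.43 FPKM in siSGK1 (adjusted p = 0.0219), and its log2 change of -0.19 as deposited became 0.0063 with TPM. Leaving out siControl replicate 3 ended the TIGAR call (adjusted p = 0.0941), as did leaving out siSGK1 replicate 2 (0.0512) or 4 (0.0815). An overlapping gene, AC008012.1, shares 1711 of its exon bases on the same strand. TP53I3, a quinone oxidoreductase also called PIG3, rose from 4.27 ± 0.33 to 5.25 ± 0.34 FPKM (adjusted p = 0.0154; 0.0583 without siControl replicate 3 and 0.0581 without siSGK1 replicate 4). SPATA18, a protein of mitochondrial quality control, was at 1.56 ± 0.07 and 1.28 ± 0.12 FPKM, without overlap but with adjusted p = 0.0715; it passed with voom on reads (0.0419), after quantile normalization (0.0385) and without siSGK1 replicate 3 (0.0397). ALOX5, the lipoxygenase that starts leukotriene synthesis, was listed at 0.855 ± 0.080 and 0.686 ± 0.146 FPKM and was not tested at the level minimum.

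All 5 members grouped here under survival, apoptosis and autophagy were called, 4 lower and 1 higher. AEN, also linked to apoptosis, was grouped with DNA repair and was not called. Over all tested genes 40.6% were called and 22.7% were called lower. PHLDA3, a pleckstrin homology protein that competes with AKT for membrane lipids, measured 99.5, 90.5 and 86.7 FPKM in siControl and 58.4, 55.1 and 63.0 FPKM in siSGK1. It fell to 63.8% of the control level, and the groups lay well apart (log2 change -0.64, SE 0.07, adjusted p = 1.73e-04). Its exons share 598 bases with AC096677.2, which was listed at 0 in every library. TP53I11, a p53-induced membrane protein, measured 28.7, 26.2 and 26.7 FPKM in siControl and 22.2, 19.7 and 21.8 FPKM in siSGK1, again without overlap (log2 change -0.35, SE 0.06, adjusted p = 2.04e-03). TRIAP1, a small protein that helps carry lipids inside mitochondria and blocks APAF1, fell from 28.4 ± 2.1 to 23.4 ± 1.9 FPKM (adjusted p = 0.0178). Without siControl replicate 2 or 3 or siSGK1 replicate 4 its adjusted p was 0.0546, 0.0673 and 0.0568. RPS27L, a ribosomal protein close in sequence to RPS27, with which reads could be shared, was at 6.49 ± 0.17 and 5.64 ± 0.44 FPKM (adjusted p = 0.0419). The log2 change of RPS27L, -0.19 as deposited, became 0.00062 with TPM. Its call was lost without any library other than siSGK1 replicate 2 (adjusted p = 0.0611, 0.122 and 0.0956 without siControl replicates 2, 3 and 4, and 0.0968 and 0.0935 without siSGK1 replicates 3 and 4) and with the replicate number as a block (0.0630). DRAM1, a lysosomal membrane protein of autophagy, rose from 3.56 ± 0.28 to 4.47 ± 0.41 FPKM (adjusted p = 0.0172; 0.0547 without siControl replicate 4).

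**Figure D4:**
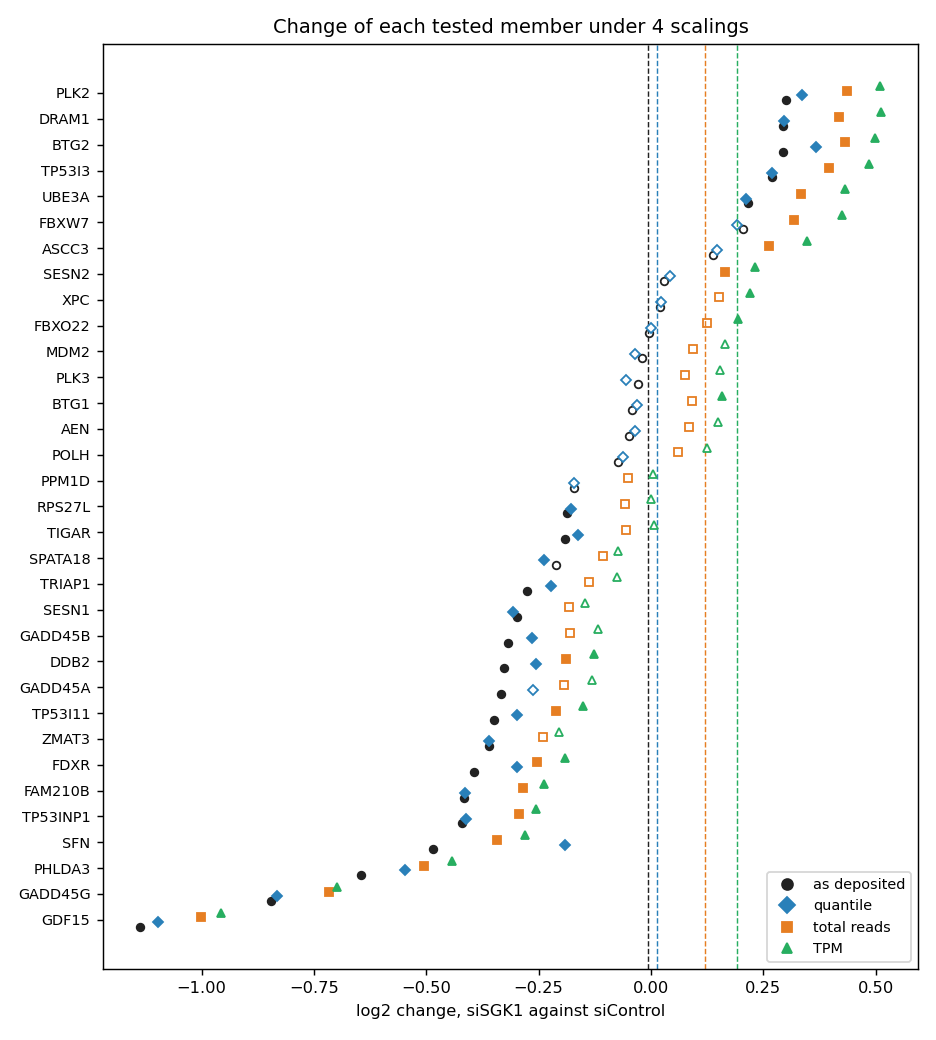
Log2 change of each tested member under 4 scalings of the same libraries, filled where the adjusted p is below 0.05; dashed lines give the median of all tested genes in each scaling. MDM2, PLK3, BTG1, AEN and POLH lie left of 0 as deposited and right of it with total reads and TPM, while GDF15, GADD45G and PHLDA3 stay below 0 in all 4.

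Of the 21 members called, 11 kept their call and direction under every alternative that tested them. These were GDF15, GADD45G, PHLDA3, SFN, FDXR, DDB2, TP53I11, FAM210B and TP53INP1, which were lower, and BTG2 and PLK2, which were higher. Sizes did change: with TPM the log2 change was -0.13 for DDB2, -0.15 for TP53I11, -0.19 for FDXR, -0.24 for FAM210B and -0.25 for TP53INP1, and for BTG2 and PLK2 it was 0.50 and 0.51. Leaving out each library in turn kept 12 of the 16 falls and 2 of the 5 rises. The controls differed among themselves in these genes: siControl replicate 2 was the highest control in 12 of the 16 members that fell and siControl replicate 4 the lowest in 10, against 46.4% and 49.0% of the 2709 tested genes called lower.

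Other genes of the p53 pathway were called at about the rate of all genes. Of 32 listed 29 were tested, 7 rose (24.1%, against 17.9% of all tested genes), 5 fell (17.2% against 22.7%) and 17 were not called, so that 41.4% were called against 40.6%. Their median log2 change was -0.04. With total reads 12 and with TPM 14 were called higher, under scalings in which 73.6% and 82.8% of all calls were higher, against 44.2% as deposited. TP63, a transcription factor of basal epithelium, measured 35.8, 39.5 and 40.6 FPKM in siControl and 37.6, 39.4 and 38.9 FPKM in siSGK1. The siSGK1 values of TP63 lay within the range of the controls (adjusted p = 0.976). Among targets CDKN1A, the CDK inhibitor p21, measured 288, 264 and 241 FPKM in siControl and 187, 168 and 179 FPKM in siSGK1. There was a gap between the groups (log2 change -0.57, SE 0.07, adjusted p = 4.72e-04). Of the 379 tested genes of 100 to 500 FPKM 54.9% were called lower, and their median log2 change was -0.19. CD82, a tetraspanin, measured 69.3, 69.1 and 63.9 FPKM in siControl and 53.03, 48.2 and 51.9 FPKM in siSGK1, and fell (adjusted p = 6.39e-04). APAF1, the core of the apoptosome, measured 1.73, 1.63 and 1.77 FPKM in siControl and 2.66, 2.86 and 2.56 FPKM in siSGK1. It was higher in every siSGK1 library (adjusted p = 5.26e-04). CHEK2, a checkpoint kinase upstream of p53, measured 3.95, 3.59 and 3.94 FPKM in siControl and 5.197, 5.70 and 5.44 FPKM in siSGK1, and also rose without overlap (adjusted p = 5.79e-04). CCNG1, HIPK2, CHEK1, TP53BP1 and CASP6 also rose, and FAS, RRM2B and HUWE1 also fell. COP1 is listed under its older name RFWD2, and ATM, RCHY1 and TP53AIP1 lay under the level minimum.

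Words in the 3′ untranslated regions (UTRs) were looked up because an earlier search of these same libraries had found some that went with the change. In the longest GENCODE 29 UTR of each gene, the octamer CTATGCAA was present in 285 of 10271 tested genes (2.77%), whose median log2 change was -0.15 against -0.01 in genes without it. Among the 37 members 4 held it: FAM210B, FBXO22, SPATA18 and MDM4. Either of its heptamers CTATGCA and TATGCAA was present in 9 members (24.3%) and in 16.2% of tested genes, on the transcript strand. The member share counts genes that were not tested, MDM4 among them. UTR length was not taken into account, and UTRs of members with a heptamer were 911 to 9419 bases long. Tested genes with a heptamer had a median log2 change of -0.04 and those without of -0.003. Beside the 4 above, the 9 are TP53INP1, ZMAT3 and TRIAP1, which fell, and BTG1 (-0.04) and PPM1D (-0.17), which were not called. A second pair of words, TCGGAGA and CGGAGAA, was present in 3.98% of tested genes, with a median of 0.07 against -0.01 without them, and in 2 members (5.41%), FAM210B, which fell, and SESN2, which was not called. GDF15, GADD45G, PHLDA3, SFN, FDXR, DDB2 and TP53I11 had neither CTATGCA nor TATGCAA. The sites of 3 members are shown because the same octamer stands in genes whose changes differed, with CTATGCA in capitals.
FAM210B: agtaatgcCTATGCAaaaaaaaa
SPATA18: tattaaaaCTATGCAacagttac
FBXO22: agaactttCTATGCAatctgcag
Their log2 changes were -0.42 for FAM210B, which was called, and -0.21 for SPATA18 and -0.0047 for FBXO22, which were not. The words were found in these data, so their presence is a description and no independent evidence.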

How the data were processed

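The members and lists were chosen with earlier results of these data known. Per the submitters' processing notes, reads were handled with bcl2fastq 2.19, HISAT2 2.0.5 and featureCounts 1.5.0-p3 on hg19; the authors deposited FPKM, 1 column per library. The table's gene positions are read as GRCh38, since 97.4% of 58039 identifiers shared with GENCODE 29 had the same position there. Strand setting and the handling of multi-mapped reads are not stated in the labels used here. FPKM times the deposited gene length (another column, in bases) was a whole multiple of 1 step for 100% of values (tolerance 0.001), which gave the reads. The implied library size was 0.952 to 1.09 times the read total and equalled median-of-ratios size factors. Replicates of a group differed by more than counting noise (chi-square per degree of freedom 3.14 to 7.60).

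The test was limma 3.58.1 in R 4.3.3 (two-sided, moderated with a trend on level). It used log2(FPKM + 0.5), which understates the change of low genes, over genes with a mean of at least 1 FPKM. The code was also run on simulated counts, in which few genes changed and the library sizes were known. That run cannot bear on the dependence on level and scaling seen in these libraries. P-values measure the spread between these cultures. Values in every library are given for members called with an absolute log2 change of at least 0.3, for MDM2, MDM4, UBE3A, PPM1D and for paralog sets; of other pathway genes for TP63, CDKN1A and the 4 with the smallest p; 1 further gene that the rule names is not reported here. Same-numbered libraries did not deviate together (correlations 0.12, 0.01 and -0.10), so the main fit has no block. Python 3.11.15 with pandas 2.3.3 did the rest.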

Additional observations from a re-analysis of the deposited data

How the results depend on the processing

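Alternatives were 2 other pseudocounts, 2 other level filters, 3 other scalings, voom on recovered reads, a replicate block and each library left out. SGK1 and GDF15 kept their calls in all of these that tested them. Against 5 members higher and 16 lower, no level filter gave 2 and 11, and a mean of at least 5 FPKM 2 and 13. Total-read scaling gave 8 and 9, and TPM scaling 11 and 9. Leaving out 1 library gave 3 to 4 higher and 12 to 16 lower, with 3 higher without siControl replicate 3 or siSGK1 replicate 4. Of the other pathway genes, 7 higher and 5 lower, a mean of at least 5 FPKM left 3 and 3, total-read scaling gave 12 higher and TPM scaling 14. With a stricter filter fewer genes are tested. The replicate block gave 4 members higher and 15 lower and 4560 genes in all against 4852; it ended the calls of UBE3A and RPS27L and of no other member, and the numbers do not pair the samples. Signs turned with total reads for BTG1 (0.092), AEN (0.084), POLH (0.059), FBXO22 (0.13), MDM2 (0.093) and PLK3 (0.076). They turned with TPM for BTG1 (0.16), AEN (0.15), POLH (0.12), FBXO22 (0.19), MDM2 (0.17), PLK3 (0.15), PPM1D (0.0049), TIGAR (0.0063) and RPS27L (0.00062), and for FBXO22 after quantile normalization (0.00050). The share of member calls that were higher was 23.8% as deposited, 47.1% with total reads and 55.0% with TPM, and that of all genes' calls 44.2%, 73.6% and 82.8%. With 1 library left out, log2 changes that crossed 0 ranged from -0.013 to 0.097 for SESN2, -0.12 to 0.0022 for AEN, -0.049 to 0.025 for FBXO22, -0.020 to 0.047 for XPC, -0.077 to 0.038 for MDM2, -0.18 to 0.054 for PLK3 and -0.051 to 0.039 for TP63; none of these was called as deposited. Without a level filter, 8 of the 21 member calls were lost, among them GADD45A, GADD45B, TP53I3 and DRAM1. Depth limits EDA2R, TNFRSF10C and ALOX5 most, which had 9 to 107 reads per library. The cause of a lost call was not tested.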
